A study of Sus scrofa with 4 samples.

Results

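LGR4, LGR5, LGR6, RNF43 and ZNRF3 are the 3 receptors for R-spondins and the 2 membrane ubiquitin ligases that these receptors act on, and their transcripts were followed in porcine pancreatic ductal organoids (PPDO) and in primary porcine pancreas by single-cell RNA sequencing. The 5 genes were chosen by name out of 30282 genes, and all features of a gene (its annotated transcripts and its 3′ extension) were summed in each library. Both PPDO libraries came from organoids started from hand-picked pancreatic ducts of pigs and grown in Cultrex, a basement membrane gel. Their medium held EGF, FGF10, an inhibitor of TGF-β receptors (A83-01), prostaglandin E2, gastrin, nicotinamide, N-acetylcysteine and a ROCK inhibitor. WNT3a, R-spondin 1 and noggin were part of its recipe, and for maintaining organoids the study put an L-WRN conditioned medium supplement in their place. A ligand of the LGR receptors was thus supplied to the organoids, and its form in the sequenced cultures is not stated. The study made the organoid lines from pigs of different ages and sequenced them at different passages. Which line gave which library is not known from the labels. The pigs of the study had a German landrace background, wild type or with an INS-eGFP reporter. The genotype behind each sequenced organoid line is not stated. Both primary libraries came from dissociated pancreas of late postnatal German landrace pigs, 1 wild type and 1 carrying an INS-eGFP reporter. From the first pancreas fragments of ducts were picked by hand to enrich duct cells, and from the second, cells that bound the lectin DBA, eGFP-positive cells and the whole suspension were sorted and pooled. Live cells were sorted for all 4 libraries. Culture and origin of the cells coincide with the groups, so that their parts in a difference between PPDO and primary cells cannot be told apart.

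Canonical WNT signalling depends on how many Frizzled and LRP receptors stand at the cell surface. RNF43 and ZNRF3 are transmembrane E3 ligases that mark Frizzled receptors for removal, and both are themselves targets of the pathway. R-spondins bind LGR4, LGR5 or LGR6 together with RNF43 or ZNRF3, which clears the ligase from the membrane and raises the response to WNT. LGR5 is known as a marker of stem cells in the intestine and of duct cells in injured pancreas, LGR6 as a marker of stem cells in skin and its appendages, and LGR4 as the broadly expressed member of the family.

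On the Sscrofa11.1 assembly the genes lie apart from each other. RefSeq places LGR4 at chr2:32871837-32979150, LGR5 at chr5:35463257-35595234, LGR6 at chr10:24358946-24454430, RNF43 at chr12:34631574-34695021 and ZNRF3 at chr14:46092000-46241327. Each gene had 2 features in the matrices. RNF43 was listed there only as ENSSSCG00000017640 and took its name from an Ensembl name table. The extension features held 14.7% and 12.7% of the LGR6 UMIs of PPDO 1 and 2, 7.40% and 7.62% of the RNF43 UMIs, and at most 3.06% of those of LGR4, LGR5 and ZNRF3.

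After limits on features, UMIs and mitochondrial share, and removal of doublets from the primary libraries, 8885 and 7337 PPDO cells and 5671 and 4261 primary cells remained, with a median of 34176 and 34459 UMIs per cell in PPDO and 10169 and 23651 in primary pancreas. Libraries shared between 10 and 23 cell barcodes per pair. Primary cells were clustered without the 5 genes, and clusters were named from marker lists, which gave 2165 and 1188 ductal-like cells in primary pancreas 1 and 2. The ductal-like clusters came almost wholly from 1 library each, clusters 1 and 4 from primary pancreas 1, clusters 0 and 24 from primary pancreas 2, and cluster 8 with 441 cells from primary pancreas 1 and 17 from primary pancreas 2. The label of the organoids was only partly borne out by duct markers. The paper states that most cells of the sequenced lines had already shifted to a less mature duct phenotype with passaging. It also reports CFTR and SOX9 protein in stained organoids, most of them at early passage. The values that follow are of the sequenced cultures only. The duct keratin KRT7 had 389 and 384 CPM (UMIs of a gene scaled to a common library total) in PPDO 1 and 2 and 553 and 596 CPM in ductal-like cells. CFTR, the chloride channel of ducts, had 1.04 and 0.636 CPM in PPDO against 952 and 795 CPM, and SOX9, a transcription factor of ducts, 3.30 and 1.44 CPM against 322 and 352 CPM. The basal keratin KRT5 had 5420 and 7634 CPM in PPDO and at most 0.324 CPM in ductal-like cells. Insulin (INS), made by β cells, had 99.5 CPM in ductal-like cells of the first primary library and 7752 CPM in those of the other, and the values were not corrected for free RNA.

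PPDO had higher levels of LGR4, LGR6 and RNF43 than ductal-like primary cells, and LGR5 and ZNRF3 did not pass the test. The comparison asks which parts of the R-spondin receptor system the organoids carry relative to the cell type they were started from. The sums of UMIs over all PPDO cells and over the ductal-like primary cells of each library were compared with the edgeR quasi-likelihood test, adjusted over all genes tested (false discovery rate, FDR, threshold 0.05). Of the 5 members 3 were called, all 3 higher in PPDO, while 43.8% of all 23539 genes tested were called in either direction, 22.9% as higher and 20.9% as lower in PPDO. These were 5385 higher and 4917 lower genes with TMM scaling (edgeR's correction for the makeup of a library), and 3252 and 6955 with library totals. The median log2 fold change was 1.19 over the 5 genes and 0.0064 over all genes. In sums of this kind more cells with a transcript and more transcripts per cell give the same value, and shares of cells are therefore given beside the levels, after each cell was thinned to 3000 UMIs.

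LGR4 had 111 CPM in PPDO 1 and 100.3 CPM in PPDO 2, against 54.4 and 73.5 CPM in ductal-like cells of the 2 primary libraries. Both organoid libraries lay above both primary sums. The log2 fold change was 1.19 ± 0.14 (SE; FDR 0.00362), and LGR4 was called under all 15 alternative settings, with a log2 fold change between 0.72 and 1.27. At 3000 UMIs per cell LGR4 was found in 24.02% ± 1.70 of PPDO cells and in 16.4% ± 3.61 of ductal-like cells (SD, n = 2 libraries each). The groups did not overlap, and with 2 libraries against 2 the two-sided exact permutation test gave p = 0.333, the smallest it can give. Such non-overlap was common, since 75.2% of the 23539 genes had expected shares at this depth that did not overlap between the groups, 25.7% higher and 49.5% lower in PPDO. Immune-like primary cells, taken as a class that should hold little LGR4, had a UMI in 0.954% and 0.725% of cells at the same depth, with a median of 6695 and 9128 UMIs per cell before thinning.

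LGR5 was present in all 4 sums and differed between libraries of the same group. It had 25.4 CPM in PPDO 1 and 11.6 CPM in PPDO 2, against 4.70 and 12.5 CPM in ductal-like cells of the same 2 primary libraries, so that the groups overlapped. The log2 fold change was 1.61 ± 0.54 (SE, with an FDR of 0.0689). LGR5 was called by DESeq2 (1.63, FDR 0.0105) and without primary pancreas 2 (2.28, FDR 0.0449), which leaves 1 ductal-like sum that is assumed to vary as the PPDO sums do. It also passed at a finer clustering (3.05, FDR 0.00556), but there the LGR5-rich cells were not named ductal-like and were left out, so that this fit is not read for LGR5. The FDR ranged up to 0.270 over the alternatives. Without PPDO 1 its log2 fold change was 0.99 (FDR 0.270). As a share of cells at 3000 UMIs, LGR5 was found in 5.95% and 3.08% of PPDO cells and in 0.634% and 1.43% of ductal-like cells, which did not overlap (means 4.52% ± 2.03 and 1.03% ± 0.564, SD, n = 2, exact permutation p = 0.333). The share in immune-like cells was 0.477% in primary pancreas 1, close to that of its ductal-like cells, and 0 of 138 cells in primary pancreas 2, which allows up to 2.17% by the limit of 3 counts of the total.

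A few cells held most of the LGR5 transcripts of primary pancreas 2. There, 17 cells of ductal-like cluster 8 were 1.43% of the ductal-like cells and held 75% of their LGR5 UMIs (237 of 316), at 641 CPM. At 3000 UMIs, 9 of these 17 cells had an LGR5 UMI (52.9%, exact 95% interval 27.8 to 77.0%), against 8 of 1107 cells of cluster 0 (0.723%, interval 0.313 to 1.42%). In primary pancreas 1 the same cluster had 441 cells and 22.1 CPM of LGR5, and 7 of 330 cells had a UMI at 3000 UMIs (2.12%, interval 0.857 to 4.32%). The 17 cells also had 238 CPM of LGR4, 119 CPM of RNF43 and 149 CPM of ZNRF3, each above the other ductal-like clusters of that library except ZNRF3 in cluster 24 (158 CPM in 64 cells), and 13.5 CPM of LGR6 from 5 UMIs. In primary pancreas 1 cluster 8 had 54.6 CPM of LGR4 and 25.9 CPM of RNF43. These lay below the 62.1 and 26.9 CPM of cluster 4 and above the 50.6 and 16.01 CPM of cluster 1. ZNRF3 had 65.3 CPM there, against 52.0 and 55.5 CPM in clusters 1 and 4. At a finer clustering TCN1 and LGR5 were among the leading genes of an unnamed cluster. It had 151 cells of primary pancreas 1 and 17 of primary pancreas 2. A ductal-like cluster of 384 cells, all from primary pancreas 1, had UNC13D and FGFR2 but not LGR5 among its leading genes. Whether the 441 cells were of the same kind as the 17 was not tested. LGR5 was among the genes that led cluster 8, beside TCN1, ONECUT2 and ROS1, and these values are a description of the cluster. Because cluster 8 was picked for its LGR5 level, the fit without it is not used for LGR5.

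LGR6 was close to absent from primary ductal-like cells and abundant in PPDO. PPDO 1 and 2 had 71.1 and 85.0 CPM, from 21410 and 22289 UMIs. Ductal-like cells had 0.162 and 0.434 CPM, from 7 and 11 UMIs. The log2 fold change was 8.61 ± 0.41 (SE), with an FDR of 5.79e-04. It stayed between 8.03 and 9.38 and was called under all 15 alternatives. A ratio of the summed levels was 296, with a 95% interval of 187 to 499 that covers counting error only. At 3000 UMIs LGR6 was found in 14.2% and 18.5% of PPDO cells (16.3% ± 3.01, SD, n = 2) and in 2 of 2052 and 2 of 1188 ductal-like cells (0.133% ± 0.0501). Immune-like cells of primary pancreas 1 had a share of 0.159%, from 1 of 629 cells. The few LGR6 UMIs of ductal-like cells were not spread evenly over their clusters. The 17 cells of cluster 8 in primary pancreas 2 held 5 of the 11 UMIs, at 13.5 CPM, against 0.248 CPM in cluster 0, and in primary pancreas 1 cluster 8 held 3 of 7 UMIs in 441 cells, at 1.04 CPM. With so few UMIs LGR6 expression in ductal-like cells and free RNA could not be told apart at this depth.

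Of the 2 ligases, RNF43 passed the test and ZNRF3 did not. RNF43 had 45.2 and 41.4 CPM in PPDO 1 and 2 and 20.03 and 33.3 CPM in ductal-like cells, without overlap (1.18 ± 0.21 on the log2 scale, FDR 0.0116). The call was lost when either PPDO library was left out (FDR 0.0676 without PPDO 1 and 0.0649 without PPDO 2) and with library totals in place of TMM scaling (0.70, FDR 0.0961), and 12 of 15 alternatives kept it. RNF43 was found in 12.1% ± 0.596 of PPDO cells and in 7.81% ± 2.64 of ductal-like cells at 3000 UMIs (SD, n = 2, exact permutation p = 0.333), and in 0.159% of immune-like cells of primary pancreas 1 and 0 of 138 in primary pancreas 2, with the limit given above. ZNRF3 had 69.6 and 60.9 CPM in PPDO and 53.9 and 78.6 CPM in ductal-like cells, and both organoid values lay between the primary ones. Its log2 fold change was 0.45 ± 0.16 (FDR 0.0755) with TMM scaling and -0.021 (FDR 0.950) with library totals, so that its direction rests on the scaling. Of 15 alternatives 1 called it, that without primary pancreas 2 (0.59, FDR 0.0339), with the same assumption about the lone ductal-like sum. The share of cells with ZNRF3 was 15.5% ± 0.157 in PPDO and 16.3% ± 6.30 in ductal-like cells (SD, n = 2, exact permutation p = 1).

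**Figure D1:**
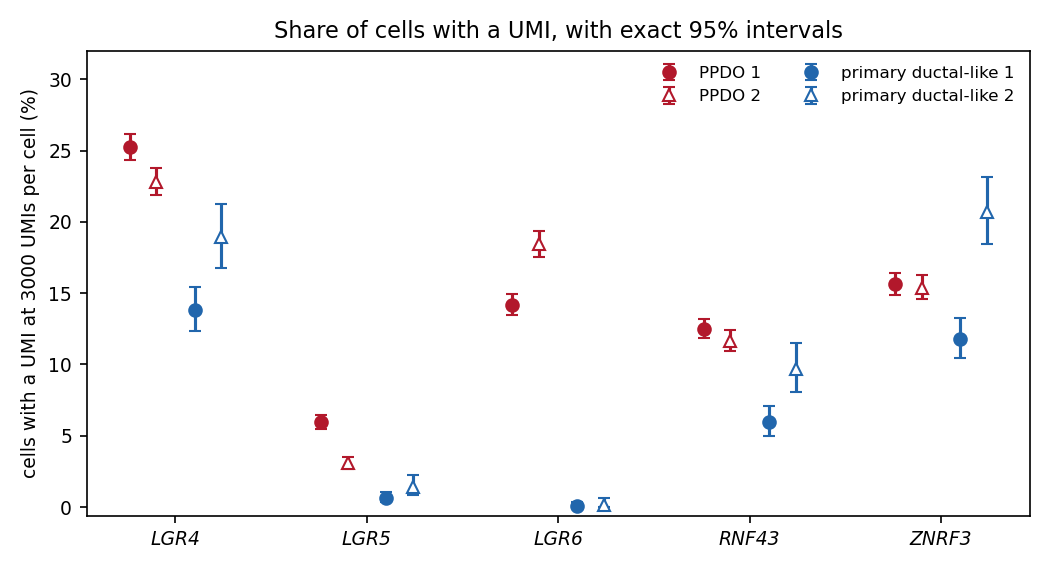
Share of cells with at least 1 UMI of each gene after thinning to 3000 UMIs per cell, in percent (y axis), for PPDO (red) and ductal-like primary cells (blue), with exact 95% intervals that cover counting error only; circles are library 1 and triangles library 2. The PPDO libraries lie above both primary libraries for LGR4, LGR5, LGR6 and RNF43, and between them for ZNRF3; 25.7% of all genes tested lay above in this way.

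Cells with a UMI of any LGR gene were more frequent in both PPDO libraries than in either primary one. Cells with a ligase UMI overlapped between the groups. Among single genes at 3000 UMIs, the ligase RNF43 also lay above without overlap and ZNRF3 did not. LGR6 alone had 16.3% in PPDO against 0.133%. Of all single genes tested 25.7% lay above in this way, and the share for joined genes was not computed. Nothing about receptors against ligases as kinds is read from these shares. At 3000 UMIs, a UMI of at least 1 LGR gene was found in 38.1% and 38.0% of cells of PPDO 1 and 2, and in 14.4% and 19.8% of ductal-like cells. A UMI of at least 1 ligase was found in 26.3% and 25.1% of PPDO cells and in 17.0% and 28.2% of ductal-like cells. Cells with both an LGR and a ligase UMI were 11.8% and 11.3% of PPDO cells and 2.24% and 6.48% of ductal-like cells. The product of the 2 shares alone gave 10.0% and 9.54% in PPDO and 2.44% and 5.58% in ductal-like cells. UMIs of all 5 genes were held by 2 and 0 PPDO cells at 3000 UMIs, by 93 and 66 cells at 10000 UMIs and by 1022 and 607 cells without thinning. The count was 0 in ductal-like cells at each depth, where LGR6 had 7 and 11 UMIs in all.

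Across primary cell classes the genes split into broad and restricted patterns. Classes with at least 50 cells in both primary libraries were compared with ductal-like cells by edgeR with the library as a term, on 2 sums per class. LGR6 had too few UMIs to be tested, and of the 16 tests of the other 4 genes 11 passed. Against ductal-like cells 2 of the 4 genes passed in acinar-like cells, and both were higher, where 24.5% of 16045 genes were called and 11% as higher. These acinar-like calls depended on the scaling, as given below, and no direction is read from them. In endocrine-like cells 2 of 4 passed as lower (35.5% of genes called, 18.2% as lower). In endothelial-like cells 3 of 4 passed as lower (38.6% called, 18.9% as lower), and in immune-like cells 4 of 4 (44.6% called, 23% as lower).

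LGR4 was high in all epithelial classes and in stellate-like cells. It had 65.5 and 52.3 CPM in acinar-like cells, 55.0 and 39.0 CPM in endocrine-like cells and 52.7 CPM in stellate-like cells of primary pancreas 1, next to its ductal-like levels given above. The stellate-like sum of primary pancreas 2 had 120 CPM of LGR4 in 48 cells. Endothelial-like cells had 5.48 and 4.79 CPM and immune-like cells 2.92 and 1.34 CPM, below every epithelial sum. On the log2 scale it differed from ductal-like cells by -3.45 ± 0.35 in endothelial-like cells (SE, FDR 1.08e-05), by -4.53 ± 0.41 in immune-like cells (FDR 4.56e-06), and by 0.30 ± 0.30 in endocrine-like cells (FDR 0.491).

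RNF43 was found mainly in ductal-like and acinar-like cells among the classes tested. It had 33.7 and 15.05 CPM in acinar-like cells, 2.96 and 2.77 CPM in endocrine-like cells, 0.664 and 0.685 CPM in endothelial-like cells and 0.687 and 1.34 CPM in immune-like cells. Ductal-like cells, at 20.03 and 33.3 CPM, overlapped with acinar-like cells and with no other of these classes. Its log2 fold changes over ductal-like cells were -2.43 ± 0.38 (SE, FDR 3.37e-04) in endocrine-like, -5.06 ± 0.47 (FDR 5.21e-06) in endothelial-like and -4.76 ± 0.51 (FDR 1.57e-05) in immune-like cells. Endocrine-like cells thus combined a lower RNF43 level with an LGR4 level that did not pass the test. The direction of LGR4 there rests on the scaling, with -0.49 on the log2 scale with library totals.

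ZNRF3 was the broadest of the ligases. It had 37.3 and 7.92 CPM in acinar-like cells, 24.2 and 32.2 CPM in endocrine-like cells, 39.4 and 44.2 CPM in endothelial-like cells, 45.9 CPM in stellate-like cells of primary pancreas 1 and 31.3 CPM in the 345 schwann-like cells of that library. Endothelial-like cells therefore carried ZNRF3 with little RNF43. ZNRF3 was called in immune-like cells, where it had 12.02 and 6.04 CPM (-2.63 ± 0.49 on the log2 scale, FDR 9.19e-04), and in no other class tested with TMM scaling. With library totals it was also called as lower in acinar-like cells (-1.55, FDR 0.0284).

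Calls in acinar-like cells depended on the scaling. LGR4 and RNF43 passed as higher than in ductal-like cells (by 1.62 and 1.63 on the log2 scale, FDR 0.00304 and 0.0059), although their CPM overlapped with those of ductal-like cells. TMM scaling set the acinar-like sums to 0.525 and 0.362 times their totals and the ductal-like sums to 1.38 and 1.56 times theirs. With library totals the value was -0.14 for LGR4 (FDR 1) and -0.086 for RNF43 (FDR 0.871), with the median over all genes at -2.00 in place of -0.33. No direction is read for these 2 genes in acinar-like cells. Insulin took 377957 and 528010 CPM of the endocrine-like sums, and with library totals the median over all genes there was -0.88 in place of -0.08.

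LGR5 and LGR6 were low in most primary classes. LGR5 was highest among the named classes of primary pancreas 1 in schwann-like cells, at 7.57 CPM from 23 UMIs in 345 cells, against 4.70 CPM in ductal-like cells, and primary pancreas 2 had 1 schwann-like cell. Stellate-like cells had 2.25 and 0 CPM. It had 2.38 and 0.792 CPM in acinar-like cells, 0.591 and 0.447 CPM in endocrine-like cells, 0.830 and 0.342 CPM in endothelial-like cells, and 1.72 and 0 CPM in immune-like cells. It was called as lower in endocrine-like (-3.34, FDR 0.00501), endothelial-like (-3.35, FDR 0.00471) and immune-like cells (-2.53, FDR 0.0225), and with library totals also in acinar-like cells (-2.25, FDR 0.0421). The endocrine and immune calls were lost at a finer clustering (FDR 0.105 and 0.144), in which the LGR5-rich cells were not named ductal-like. LGR6 had its highest primary level in stellate-like cells, at 5.84 and 13.8 CPM from 39 and 6 UMIs, and was listed at 0 in acinar-like cells of both libraries. With classes of at least 40 cells, a setting added after the data were seen, RNF43 was lower in stellate-like than in ductal-like cells (-4.78 ± 0.61 on the log2 scale, FDR 9.00e-06), while 48 cells stood for stellate-like cells in primary pancreas 2. In that comparison 5321 of 16976 genes were called, 2486 of them as lower.

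**Figure D2:**
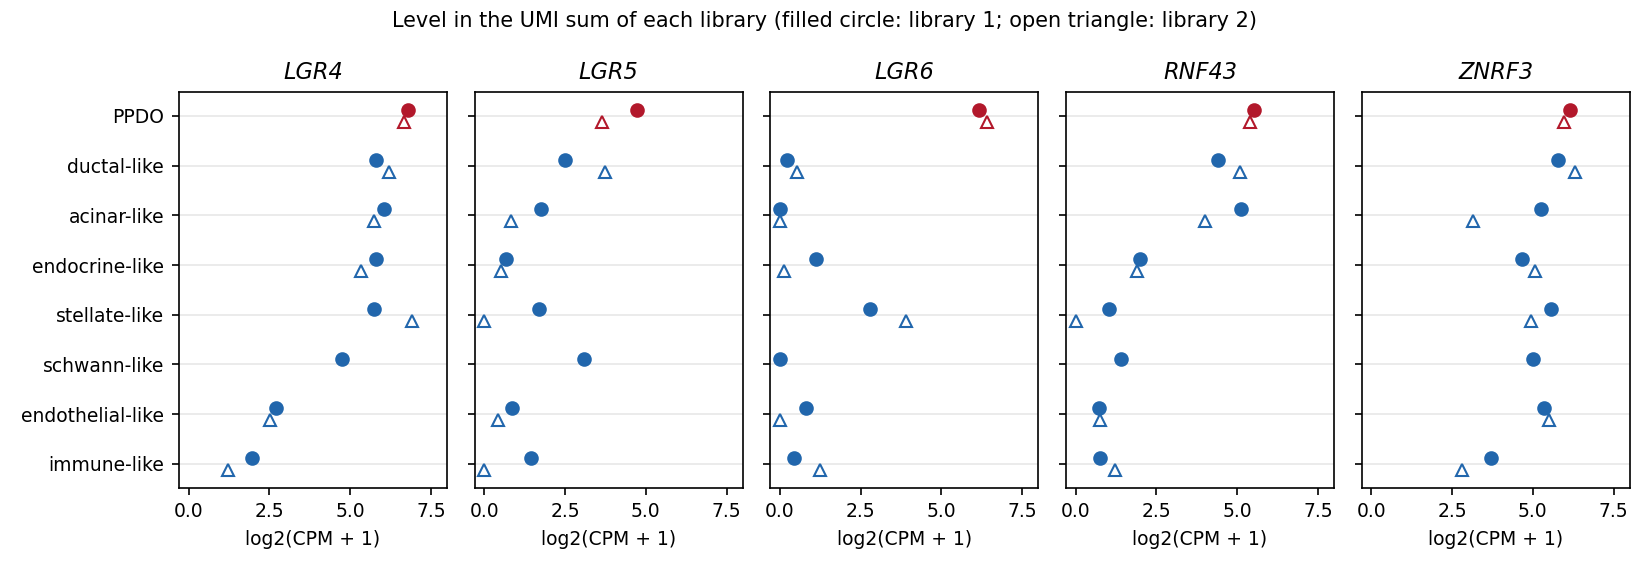
Level of each gene as log2(CPM + 1) (x axis) in the UMI sum of PPDO (red) and of each primary class (blue) per library, for sums of at least 40 cells; filled circles are library 1 and open triangles library 2. LGR4 and ZNRF3 span most classes, RNF43 stands high in PPDO, ductal-like and acinar-like sums, and LGR6 stands apart in PPDO with stellate-like sums next.

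Within PPDO the genes followed different cell states. Organoid cells of both libraries were clustered together without the 5 genes into 9 clusters, and all of them held cells of both libraries. Clusters 0, 1 and 3 had basal markers and were led by IGFBP6 and PTGS2, by CXCL14 and HMCN1, and by GPNMB. Of 8 basal markers measured, 6 were raised in cluster 0, 3 in cluster 1 and 5 in cluster 3. A name needed at least 3, so that the name of cluster 1 rests on the fewest allowed. Cluster 2 had glycolysis markers with ADM, EGLN1 and VEGFA, clusters 4 and 8 cornified markers, cluster 5 mitosis markers, cluster 6 replication markers, and cluster 7, led by SPP1 and WFDC2, duct markers. Clusters come from the same cells and other genes follow their boundaries, so that the values are given without a test, over the 8 clusters with at least 50 cells in both libraries.

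LGR6, LGR5 and ZNRF3 had their highest levels in clusters 1 and 6. LGR6 had 184 and 199 CPM in cluster 1 of PPDO 1 and 2, 143 and 146 CPM in cluster 6, and its lowest levels in the cornified-like cluster 4, at 2.64 and 7.99 CPM. That is a range of 69.8-fold in PPDO 1 and 25.0-fold in PPDO 2, the widest of the 5 genes in PPDO 1, while in PPDO 2 LGR5 ranged more widely. LGR5 had 48.1 and 27.9 CPM in cluster 1, 49.2 and 22.7 CPM in cluster 6 and 2.50 and 0.943 CPM in the glycolysis-like cluster 2, a 19.7-fold and a 29.6-fold range. ZNRF3 had 126 and 108 CPM in cluster 1, 110 and 89.4 CPM in cluster 6 and 19.7 and 22.6 CPM in cluster 2, a 6.39-fold and a 4.81-fold range.

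LGR4 and RNF43 varied less, and RNF43 was highest in the cluster where LGR5 and ZNRF3 were lowest. LGR4 had its highest levels in cluster 1 (144 and 142 CPM) and cluster 3 (138 and 141 CPM) and at least 51.3 CPM in each of the 8 clusters, so that its highest and lowest levels differed 2.22-fold and 2.76-fold. RNF43 was highest in cluster 2 of both libraries, at 77.4 and 52.3 CPM, where LGR5 and ZNRF3 were at their lowest and LGR6 had 4.25 and 18.4 CPM. Elsewhere RNF43 lay between 32.9 and 48.9 CPM. It was lowest in cluster 6 of PPDO 1 and in cluster 4 of PPDO 2 (33.7 CPM), where LGR6 was lowest too. The terminal cornified-like cluster 8, with 40 and 100 cells, had at most 8.98 CPM of each of the 5 genes.

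LEF1 and AXIN2, transcribed in response to canonical WNT signalling, were highest in the same cluster as LGR6 at this clustering. LEF1 had 75.5 and 63.9 CPM in cluster 1 and 3.35 and 4.204 CPM in cluster 2. AXIN2 had 51.6 and 40.1 CPM in cluster 1 and 4.17 and 9.04 CPM in cluster 2. At a coarser clustering (Leiden resolution 0.3) LGR6 was highest in the replication-like cluster of both libraries, at 132 and 136 CPM, next to 118 and 133 CPM in the basal-like cluster. AXIN2 was highest there in the basal-like cluster (39.9 and 32.9 CPM), and LEF1 in the replication-like cluster of PPDO 1 (60.7 CPM) and the mitosis-like cluster of PPDO 2 (47.3 CPM). Over the 16 cluster sums, the Pearson correlation of log2(CPM + 1) was 0.89 between LGR5 and ZNRF3, 0.85 between LGR6 and ZNRF3 and 0.77 between LGR5 and LGR6. RNF43 had correlations of -0.46 to -0.32 with the other 4 genes over these sums, in which both libraries were pooled. The cluster sums come from the same 2 libraries, which differ in depth and cell number. Over the 12 sums of PPDO and primary classes RNF43 had positive correlations with the other 4 genes, from 0.49 to 0.87.

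The 2 PPDO libraries differed in opposite ways for 2 receptors. LGR5 was higher in PPDO 1 in 8 of 8 clusters, and LGR6 was higher in PPDO 2 in 8 of 8 clusters. LGR4 and ZNRF3 were higher in PPDO 1 in 6 of 8 clusters and RNF43 in 4 of 8. The clusters are parts of the same 2 libraries, so that these counts are not 8 separate observations. Some differences were small, as for LGR6 in cluster 6 with 143 and 146 CPM. The share of all genes with such counts was not computed. Organoid line, age of the pig and passage differ together between the 2 libraries, so that their parts cannot be told apart.

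**Figure D3:**
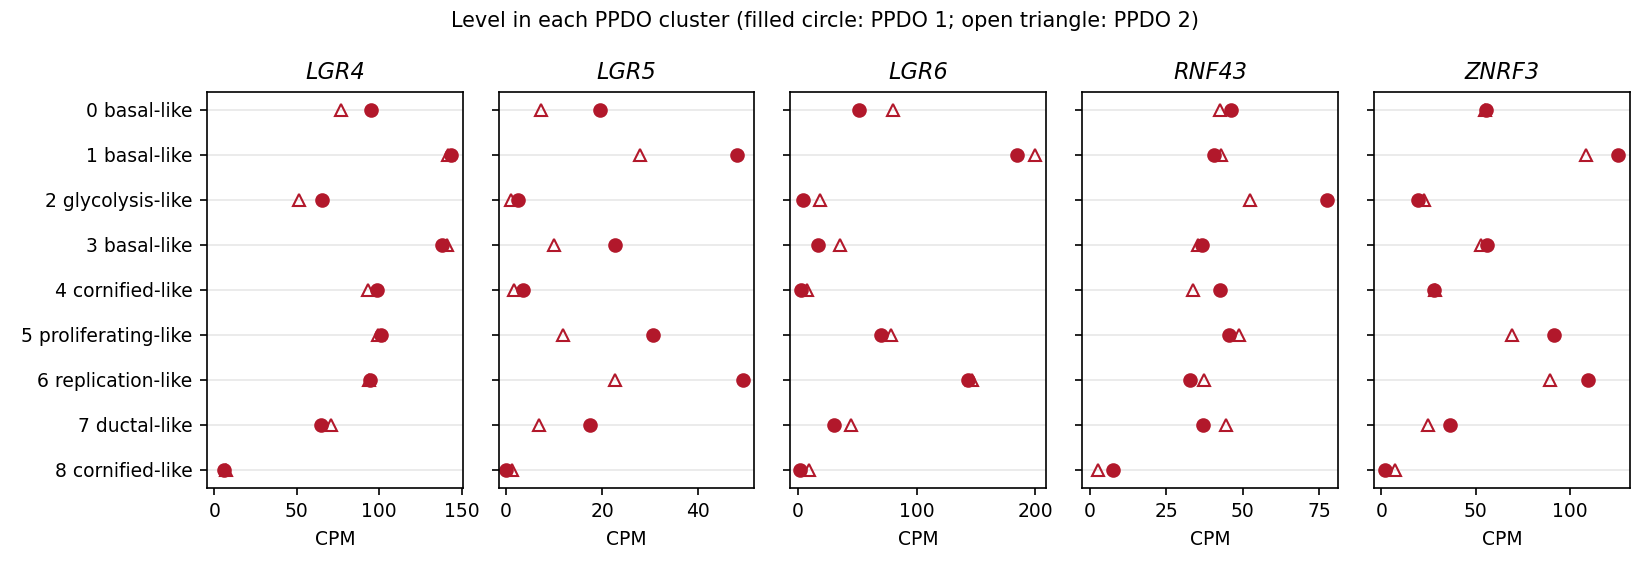
Level of each gene in CPM (x axis, own scale per gene) in the 9 PPDO clusters, with filled circles for PPDO 1 and open triangles for PPDO 2. LGR5, LGR6 and ZNRF3 peak in clusters 1 and 6, RNF43 peaks in the glycolysis-like cluster 2, and all 5 genes are low in the terminal cluster 8.

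LGR5, LGR6 and ZNRF3 were found in the same organoid cells more often than their shares alone give. For each of the 10 pairs the number of cells with a UMI of both genes at 3000 UMIs was set beside the product of their shares. This is a description without a test, and PPDO cells were not searched for doublets. The share of all gene pairs with such ratios was not computed. LGR5 and LGR6 were found together in 155 cells of PPDO 1 where the product gave 74.5, and in 89 cells of PPDO 2 where it gave 41.7, ratios of 2.08 and 2.13. The ratio was 1.88 and 1.59 for LGR6 with ZNRF3 (367 and 331 cells) and 1.81 and 1.72 for LGR5 with ZNRF3 (148 and 60 cells). LGR4 had ratios of 1.11 to 1.18 with LGR5, LGR6 and ZNRF3. The ratio for LGR4 with RNF43 was 1.04 and 1.01.

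RNF43 was found with the other genes about as often as its share gives. RNF43 with ZNRF3, the ligase pair, had ratios of 0.934 and 1.08, and RNF43 with LGR6 of 0.938 and 1.07. RNF43 with LGR5 had 0.837 and 0.834, from 55 and 22 cells. In place of this random draw, expected counts over all draws gave 1.00 and 1.10 for that pair, so that no direction is read for it.

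Part of the co-detection followed the clusters. When the product of shares was taken within each cluster and summed, LGR5 with LGR6 fell from 2.08 and 2.13 to 1.29 and 1.40, LGR6 with ZNRF3 to 1.27 and 1.22 and LGR5 with ZNRF3 to 1.34 and 1.24, all above 1 in both libraries. LGR4 with LGR5 was at 0.989 and 0.931 by the same measure. LGR6 with LEF1 was found in 182 and 156 cells, ratios of 1.99 and 1.94, and of 1.12 and 1.27 within clusters. Without thinning all 10 pairs had ratios above 1 in both libraries, so that the ratios move with the depth of the cells.

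**Figure D4:**
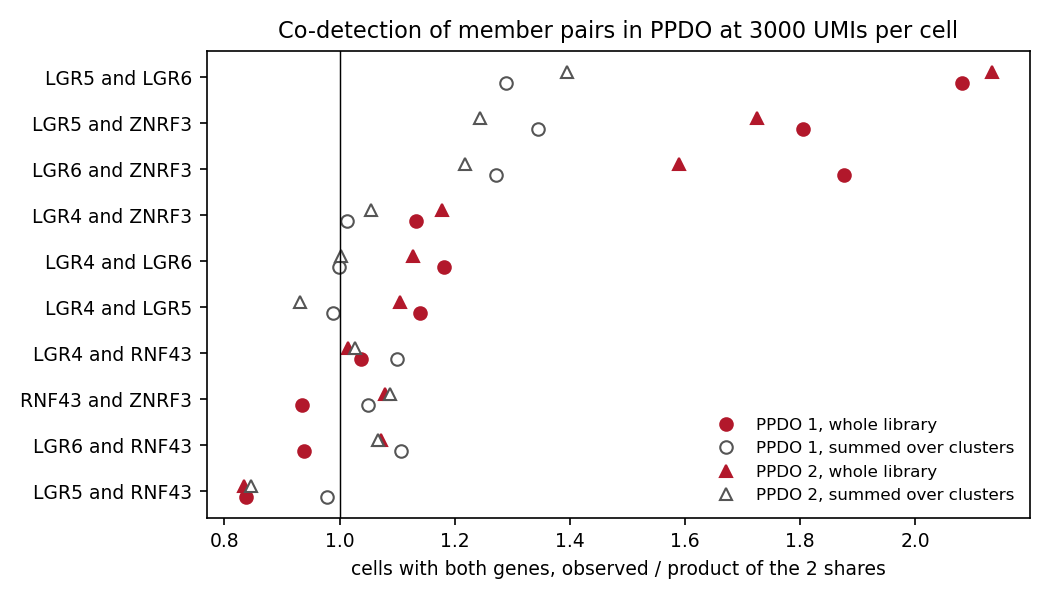
Cells with both genes of a pair divided by the number that the product of the 2 shares gives (x axis, linear, line at 1) at 3000 UMIs per cell for PPDO 1 (circles) and PPDO 2 (triangles), with the product taken over the whole library (red, filled) or summed over clusters (grey, open). The pairs among LGR5, LGR6 and ZNRF3 lie between 1.59 and 2.13, and between 1.22 and 1.40 within clusters.

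In primary ductal-like cells the pairs could be read only for the more frequent genes. At 10000 UMIs per cell, LGR4 and ZNRF3 were found together in 228 of 1722 cells and 228 of 1138 cells, ratios of 0.987 and 0.981. LGR4 with RNF43 had 1.12 and 0.903 (114 and 116 cells) and RNF43 with ZNRF3 0.979 and 0.939 (93 and 129 cells). LGR5 and LGR6 were found together in 0 ductal-like cells of both libraries, where the product gave 0.0139 and 0.0712 cells, so that the depth could not show the pair.

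Of the other genes of the pathway, RSPO1, LEF1 and ASCL2 were higher in PPDO and several Frizzled genes lower. Of a list of 35 genes of the R-spondin and WNT receptor pathway 34 had a feature and 32 were tested, and 16 were called, beside 43.8% of all genes. Of these 6 were higher and 10 lower in PPDO, beside 22.9% and 20.9% of all genes, and nothing particular to the list is read from the counts. The median log2 fold change of the list was -0.45, against 0.0064 for all genes tested. Of the R-spondins, RSPO1 had 2.28 and 2.60 CPM in PPDO (686 and 681 UMIs) and 2 and 0 UMIs in ductal-like cells (6.79 ± 0.73 on the log2 scale, FDR 0.00323). The ratio of its summed levels was 83.2, with a counting interval of 23.0 to 688. The fitted value ran from 6.01 without primary pancreas 2 to 11.93 without primary pancreas 1, where the remaining ductal-like sum had 0 UMIs.

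The other R-spondins were found at trace levels in both groups. RSPO2 had 42 and 35 UMIs in PPDO, at 0.140 and 0.133 CPM, and 11 and 13 UMIs in ductal-like cells (-0.97 on the log2 scale, FDR 0.129). RSPO3 had 19 and 25 UMIs in PPDO (-0.78, FDR 0.319) and RSPO4 10 and 12 UMIs (-0.72, FDR 0.381). In primary pancreas RSPO3 had its highest level in stellate-like cells, at 41.5 and 55.3 CPM from 277 and 24 UMIs, the class in which LGR6 had its highest primary level. In primary pancreas 2 the 2203 endocrine-like cells held more of its UMIs than the 48 stellate-like cells, at 1.45 CPM. RSPO2 had its highest primary level in immune-like cells, at 8.25 and 4.03 CPM.

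Among target genes of the pathway, ASCL2, a transcription factor of intestinal stem cells, had 7.495 and 3.38 CPM in PPDO and 0.0231 and 0.118 CPM in ductal-like cells, from 1 and 3 UMIs (6.90 ± 0.78, FDR 0.00358, and 6.04 to 8.13 without primary pancreas 1 and without primary pancreas 2). LEF1, a DNA-binding partner of β-catenin, had 33.6 and 26.4 CPM against 1.94 and 1.58 CPM (4.51 ± 0.28, FDR 9.19e-04). NOTUM (3.17), TNFRSF19 (1.44) and AXIN2 (1.20) were the other genes called as higher. With library totals AXIN2 was at 0.78 and no longer called (FDR 0.0702). NKD1, another feedback inhibitor, had 0.292 and 0.145 CPM in PPDO and 0.717 and 0.868 CPM in ductal-like cells (-1.40 ± 0.46, FDR 0.0645), and SP5 had 0 UMIs in both PPDO libraries and 0 and 6 UMIs in ductal-like cells. NOTUM removes the lipid that WNT ligands need, and AXIN2 acts in the complex that degrades β-catenin, so that these are feedback inhibitors. LEF1 was not particular to organoids, with 61.4 and 64.3 CPM in endothelial-like and 50.8 and 107 CPM in immune-like primary cells. ASCL2 had 2.37 and 2.25 CPM in endocrine-like cells of primary pancreas 1 and 2, from 4 and 191 UMIs.

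Frizzled genes, whose products RNF43 and ZNRF3 remove from the membrane, were 10 of the 35 listed genes, and 9 were tested. Of the 9, 5 were called as lower, beside 20.9% of all genes, and 0 as higher. FZD5 had 11.6 and 8.98 CPM in PPDO and 550 and 736 CPM in ductal-like cells (-5.50 ± 0.20, FDR 3.76e-04). FZD2 had 0.312 and 0.221 CPM in PPDO and 5.62 and 7.93 CPM in ductal-like cells (-4.19 ± 0.34, FDR 0.00157). FZD8 had 0.827 and 1.01 CPM against 9.65 and 8.64 CPM (-2.87 ± 0.30, FDR 0.00305). These 3 receptors were named for the largest falls among called genes of the list, and both organoid libraries lay below both primary sums. The share of all genes with such sums was not computed, and nothing is read from it. By expected shares of cells at 3000 UMIs, 49.5% of all genes tested lay lower in PPDO without overlap. FZD7 and FZD3 fell by 1.27 and 0.87 on the log2 scale. FZD10 (-1.82), FZD9 (-0.80), FZD6 (0.24) and FZD1 (0.67) did not pass, with FDR of 0.0674, 0.175, 0.370 and 0.141. The other 5 genes of the list called as lower were the co-receptor LRP6, the transducers DVL3 and CTNNB1 (β-catenin), APC of the degradation complex and the transcription factor TCF7L2, which fell by 0.63 to 0.83.

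**Figure D5:**
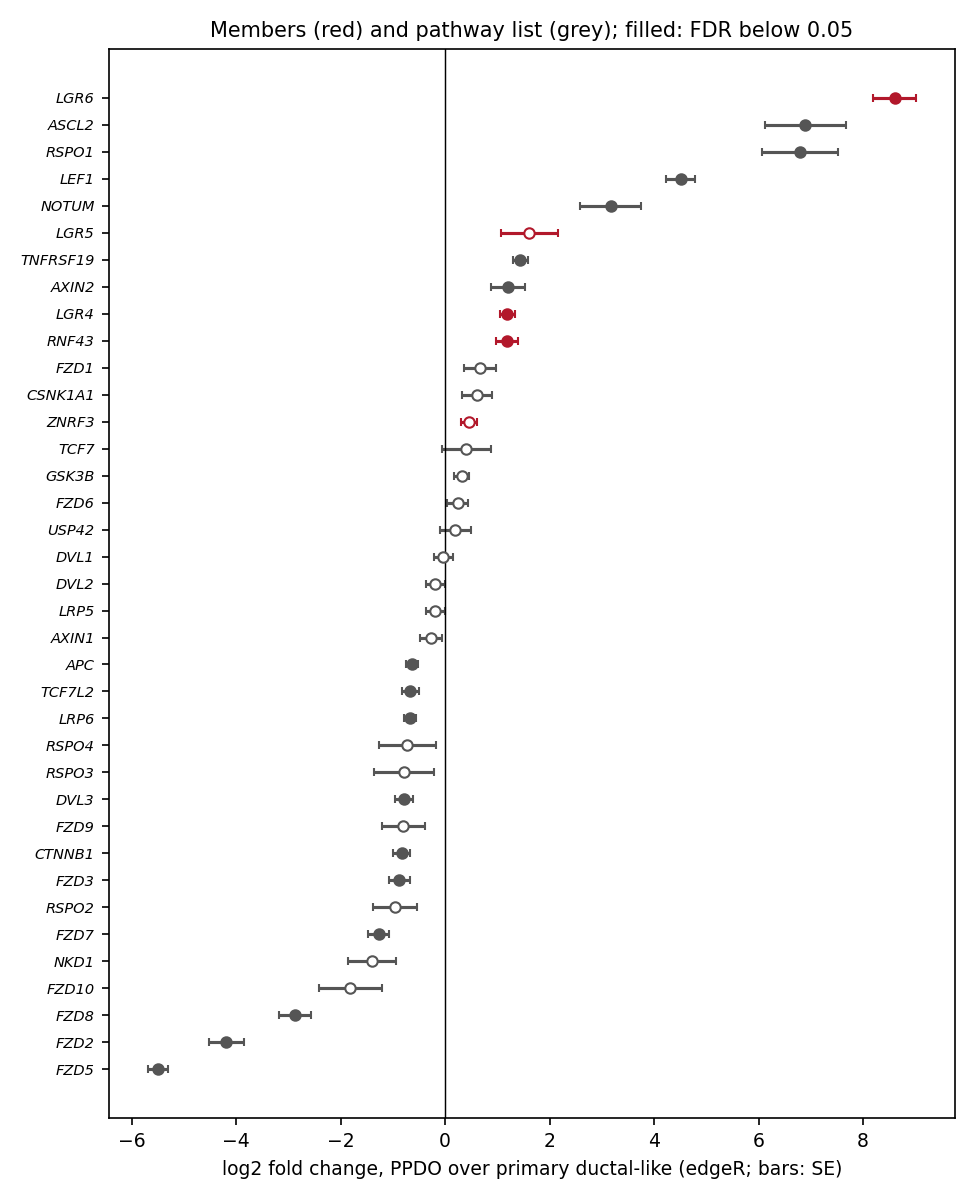
Log2 fold change of PPDO over ductal-like primary cells (x axis) from the edgeR fit, with a standard error derived from its F value. The 5 members are red and the tested genes of the pathway list grey, with filled points for FDR below 0.05. LGR6 (8.61), ASCL2 (6.90) and RSPO1 (6.79) stand highest and FZD5 (-5.50), FZD2 (-4.19) and FZD8 (-2.87) lowest.

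Genes most like each member were sought by the Pearson correlation of log2(CPM + 1) among genes with at least 10 CPM in a sum. Over 12 sums, of PPDO and 5 primary classes, LGR6 was most like TFAP2A (0.995), EYA1 (0.992) and CSTA (0.989), LGR4 most like ESRP1 (0.968), SMARCD3 (0.956) and LYPD6B (0.954), and LGR5 most like ERCC2 (0.965) and KLF5 (0.947). RNF43 was most like RIPK4 (0.974), ELMO3 (0.968) and TMEM125 (0.964). ZNRF3 was most like ASPH (0.944), HACD1 (0.936) and FZD6 (0.930). These sums share 4 libraries and differ in depth and composition, and the named genes are the most alike of 11307 ranked. LGR6 had at most 1.34 CPM in the primary sums of this set. Its correlations therefore follow mainly the step between primary cells and PPDO.

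Over the 16 PPDO cluster sums the order of likeness was another. LGR5 was most like TCF3 (0.978), MTARC2 (0.978) and PLIN2 (0.971), LGR6 most like LYL1 (0.974), FYN (0.960) and PIGP (0.959), and ZNRF3 most like PIK3R2 (0.977), C16orf87 (0.976) and SAMD5 (0.975). RNF43 was most like XRN1 (0.936), FNIP1 (0.935) and TBC1D8B (0.934). LGR4 was most like BCL11A (0.935), STX6 (0.933) and TMEM104 (0.915). CSTA, an inhibitor of proteases in stratified epithelia that stood close to LGR6 over the 12 sums, had up to 849 CPM and was listed at 0 in at least 1 sum.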

How the data were processed

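Live-sorted single cells were sequenced with the Chromium 3′ v3.1 kit. The authors counted UMIs with Cell Ranger 7.1.0 against an in-house pig annotation with 3′ extensions, and the submitters' processing notes name Sscrofa11.1 (and GRCh38). The deposited matrices hold raw UMI counts, before the correction for free RNA that the study ran later. They had 9853 and 8071 barcodes for PPDO (366263520 and 316018482 UMIs) and 6999 and 7657 for primary pancreas (87043513 and 138928395 UMIs). Intervals cover counting error only.

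Kept PPDO cells had 1000 to 9000 features and at most 3% mitochondrial UMIs. Primary cells had at most 9000 features and 8% mitochondrial UMIs, with at least 400 features in primary pancreas 1 and 800 features and 3000 UMIs in primary pancreas 2. Scrublet removed 89 and 154 primary doublets, and PPDO cells were not searched for doublets. Cells were clustered per group with scanpy 1.11.5 (2000 variable genes, 20 components, 15 neighbours, Leiden resolution 0.5), and a class needed at least 3 of its markers.

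UMI sums per library and class were tested with edgeR 4.0.16 (quasi-likelihood, TMM, filterByExpr, Benjamini-Hochberg), and the scripts were tested on simulated data. Standard errors of edgeR fold changes were derived as the absolute log2 fold change divided by the square root of its F value. Alternatives were DESeq2, other scalings, filters, depths, clusterings and left-out libraries. Members, lists and tests were chosen with earlier results of these data known. Beside the members, named genes were the 3 called pathway genes with the largest fold change in each direction, RSPO1 to RSPO4 and the 3 genes most like each member, of which 1 is not reported here. Other names were added after values were seen. The labels name the libraries as separate samples, and p-values measure only the spread between these libraries. Sequences of the genes were not used here.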

Additional observations from a re-analysis of the deposited data

How the results depend on the processing

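For PPDO against ductal-like cells 3 members were called, and leaving out 1 library at a time gave 2 to 5 (2 without PPDO 1 or PPDO 2, 5 without primary pancreas 2), where the lone sum of a group is assumed to vary as the other group does. The pathway list had 16 calls and 8 to 19 with 1 library left out, 8 being the count without PPDO 1 or without PPDO 2. Over all genes 10302 calls became 4994 without PPDO 1 and 4550 without PPDO 2. DESeq2 1.42.0 and finer clustering (Leiden resolution 1) gave 4 members each, with 11221 of 24776 and 10322 of 23483 genes called, and 10716 of 24677 genes were called without primary pancreas 2. So did leaving out ductal-like cluster 8, which was picked for its LGR5 level. Finer clustering and this fit both leave out LGR5-rich cells, and their call of LGR5 is not read. Library totals in place of TMM, added after the data were seen, gave 2 members, with ZNRF3 at -0.021, and moved the median of all genes from 0.0064 to -0.45. The remaining alternatives gave 3 members.

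Replicate numbers do not pair PPDO with primary libraries (correlation of the deviations of same-numbered libraries -0.0128 over 23539 genes). The replicate block gave 3 members and 15 list genes, changed no member's call and gave 8143 calls over all genes.

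Among the primary classes 11 calls became 9 to 11, and 11 without the library as a term. With library totals LGR4 was at -0.14, RNF43 at -0.086 and ZNRF3 at -1.55 (called, FDR 0.0284) in acinar-like cells, where LGR5 was called too (-2.25, FDR 0.0421), and LGR4 at -0.49 in endocrine-like cells. Acinar-like calls over all genes were then 684 higher and 10032 lower in place of 1769 and 2160 (2336 and 1830 by DESeq2), and endocrine-like calls 1727 and 6264 in place of 2773 and 2916. In acinar-like cells LGR5 was at 0.12 with finer clustering, and ZNRF3 at -0.31 without a low-count filter, -0.10 with doublets kept and -0.072 with classes of at least 40 cells. The cause was not tested.

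Shares of cells did not overlap between PPDO and ductal-like cells for 4 of 5 members under each of 5 alternatives, beside 75.2% of all genes tested (expected shares at 3000 UMIs). Pairs found together above the product of shares in both PPDO libraries were 7 of 10, and 6 to 10 under 4 alternatives. The share over all gene pairs was not computed, and nothing particular to the members is read from this count. For 4 of 5 members the highest cluster was the same in both PPDO libraries at either clustering, LGR5 being the exception at resolution 0.5 and LGR4 at 0.3. Both libraries were clustered together, the share of all genes was not computed, and nothing particular to the members is read from this count. LGR6 and ZNRF3 were highest in cluster 1 (basal-like by 3 of 8 markers) at 0.5 and in the replication-like cluster at 0.3. No cluster had the cells needed to restrict ductal-like cells to clusters shared by both primary libraries, and leaving out a primary library left no residual degrees of freedom between classes, so neither was run. Depth limits LGR6 in ductal-like cells, which rests on 7 and 11 UMIs.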

Other observations

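Cells of primary pancreas 1 that stayed unnamed for their low depth held LGR5 too. They were 269 cells with a median of 1257 UMIs, and 6 of them held all 115 of their LGR5 UMIs, at 129 CPM, against 203 UMIs in the 2165 ductal-like cells of that library. Of the 269 cells 145 came from a cluster nearest to duct cells by its markers, which was left without a name because its cells were shallow and none of its leading genes, among them TCN1 and MMP7, was on a marker list. At least 3000 UMIs were present in 32 of the 269 cells, and 12.5% of these had an LGR5 UMI after thinning (exact 95% interval 3.51 to 29.0%). Unnamed cells of primary pancreas 2 had 3 LGR5 UMIs in 363 cells.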
